A study of Gelatoporia subvermispora and Trametes versicolor with 24 samples.

Results

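In the white-rot fungus Gelatoporia subvermispora, 19 of 12313 genes were taken by a rule that asks for static culture effects of opposite direction without and with antioxidants, with limits on size. RNA was sequenced from strain FP-105752, grown at 28 °C in 25 mL of Czapek-Dox medium with 15 mM cellobiose, either shaken at 220 rpm (agitated) or left standing (static). Every flask received about 2 mM 4-hydroxybenzoate on day 10 and was harvested 24 h later, on day 11. Some agitated and some static flasks had also been given 1 mM α-tocopherol together with 5 mM ascorbic acid 30 min before the 4-hydroxybenzoate. This makes 4 groups of 3 libraries: agitated without antioxidants, agitated with them, static without them and static with them. All 4 groups carry the 4-hydroxybenzoate treatment, so no comparison addresses it, and all come from 1 strain. Whether the 3 replicates of a group were separate flasks is not given in the labels, so the spread between them may be partly technical.

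White-rot fungi are wood-decaying basidiomycetes that break down lignin with secreted oxidative enzymes. Shaking a culture raises oxygen transfer and usually gives pellets, whereas a standing culture tends to grow as a mat at the air surface. Ascorbic acid is a water-soluble and α-tocopherol a lipid-soluble scavenger of radicals and oxidants, and 4-hydroxybenzoate is an aromatic acid related to lignin. The tables used here list genes by running number only, so the genes are described by their values and given no names, products or roles.

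The 19 genes were selected on the same 12 libraries that are described here. Values are in CPM, a gene's reads scaled to the total of reads assigned to genes in that library, and the choice used L, the log2 of CPM plus 1, averaged over the 3 libraries of each group. A gene was taken when its mean L over the 12 libraries was at least 3 and its static minus agitated difference had opposite signs without and with antioxidants, each at least 0.4 in size. Its antioxidant effect also had to stay under 1 in agitated and under 0.7 in static culture, and the 150 genes of highest mean CPM were dropped, which removed none of the 19. Static and antioxidant effects in both states thus entered the choice, and the values of the 19 genes in these comparisons are a description. Test calls over all genes are given further on to show where the 19 stand, and since the same libraries chose them, a call is not support.

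Reads assigned to genes ran from 7875324 in static replicate 1 without antioxidants to 26653884 in static antioxidant replicate 1. Agitated antioxidant replicate 3 stood apart from its group: its log2 values correlated across genes with those of replicates 1 and 2 at 0.962 and 0.955, against 0.996 between those 2. Static replicate 1 without antioxidants, the shallowest library, correlated with its group at 0.982 and 0.979, against 0.992 between the other two.

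Opposite static effects of this size were uncommon. Of the 7904 genes with a mean L of at least 3, 1692 had static effects of opposite sign, but only 52 reached 0.4 in both. By contrast, 2130 genes reached 0.4 in both with the same sign. Of the 52, 22 were left out for the agitated antioxidant limit alone, 6 for the static limit alone and 5 for both. The 19 that remained fall into 9 genes that were higher in static culture without antioxidants and lower with them, called rise-to-fall genes here, and 10 that went the other way, called fall-to-rise genes.

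**Figure D1:**
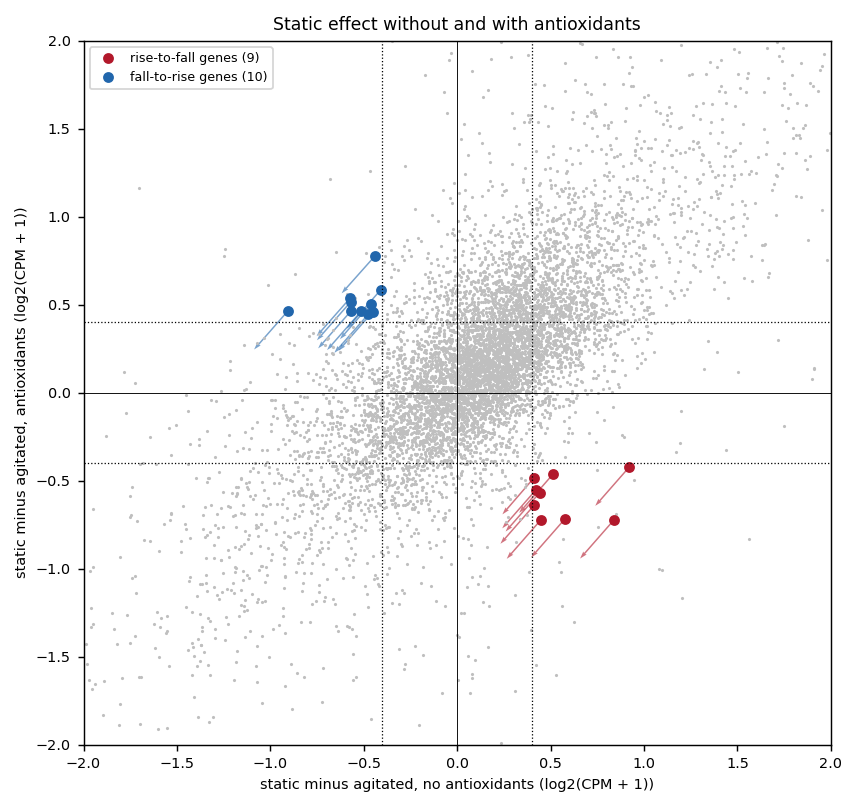
Static minus agitated difference of mean log2(CPM + 1) without antioxidants (x axis) and with antioxidants (y axis). Grey points are 7540 of the 7904 genes, 364 lie beyond the axes, and dotted lines mark 0.4. The 9 rise-to-fall genes (red) and 10 fall-to-rise genes (blue) lie beyond the dotted lines because the rule asked for it. Arrows show where each gene moves when libraries are scaled by TMM instead of by their totals.

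The clearest rise-to-fall gene was gene9504. It stood at 107, 107 and 94.1 CPM in agitated culture without antioxidants and at 166, 202 and 213 CPM in agitated culture with them. In static culture it stood at 231, 173 and 156 CPM without antioxidants and at 121, 124 and 105 CPM with them. No library of either static group overlapped the matching agitated group. The static difference was 0.84 in L without antioxidants and -0.72 with them.

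gene11249 was the only rise-to-fall gene with its highest mean in static culture without antioxidants. There it stood at 189, 191 and 191 CPM, against 109, 102 and 90.3 CPM in agitated culture. With antioxidants the agitated libraries were at 175, 198 and 137 CPM and the static ones at 117, 130.4 and 129 CPM. Both pairs of groups were apart, although agitated antioxidant replicate 3 came within a few CPM of the static libraries. The static difference was 0.92 without and -0.42 with antioxidants.

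gene8438 and gene4170 each had a static difference of -0.72 with antioxidants, the same as gene9504. gene8438 stood at 109, 106 and 93.1 CPM when shaken and 181, 137 and 144 CPM when standing, without antioxidants. With them it stood at 176, 222 and 97.9 CPM when shaken and 99.1, 97.4 and 88.4 CPM when standing. Its agitated antioxidant libraries disagreed, since replicate 3 lay among the static libraries while replicates 1 and 2 lay well above them. gene4170 stood at 132, 143 and 134 CPM when shaken and 203, 178 and 179 CPM when standing, without antioxidants, and at 226, 279 and 174 against 137, 131 and 134 CPM with them. Here both pairs of groups were apart, and the agitated cultures without antioxidants and static cultures with them stood at nearly the same level (136 ± 5.95 and 134 ± 2.87 CPM, SD, n = 3).

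In gene1593 and gene688 the agitated libraries carried most of the difference. gene1593 went from 88.2 ± 6.52 CPM in agitated culture without antioxidants to 163 ± 17.5 CPM with them (SD, n = 3), while in static culture it stood at 119 ± 18.5 and 111 ± 10.8 CPM. gene688 gave 87.7 ± 2.93 and 158 ± 8.20 CPM in agitated, and 118 ± 15.8 and 101 ± 6.56 CPM in static culture, in the same order. Their static libraries without and with antioxidants overlapped as groups. Read by replicate number, gene688 was lower with antioxidants in each of the 3 static pairs (104 and 93.4, 135 and 104, 114 and 105 CPM), and gene1593 in 2 of 3.

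The remaining rise-to-fall genes had the same shape. gene1193 stood at 47.8 ± 1.52 CPM when shaken and 68.6 ± 1.57 CPM when standing, without antioxidants, and at 80.1 ± 17.5 and 56.9 ± 4.19 CPM with them (SD, n = 3). gene4564 stood at 96.7 ± 1.66 and 133 ± 24.4 CPM without antioxidants and at 139 ± 13.2 and 93.2 ± 5.64 CPM with them. gene11432, the one with the fewest reads of the class (90 in its lowest library), stood at 10.3 ± 0.723 and 14.1 ± 2.36 CPM without and 15.8 ± 2.48 and 10.9 ± 0.253 CPM with antioxidants. In 8 of the 9 genes the highest group was agitated culture with antioxidants. The lowest was agitated culture without antioxidants in 6 and static culture with antioxidants in 3. Some of these orders were near ties. In gene8438, gene9504 and gene4564 the highest group exceeded static culture without antioxidants by only 0.03, 0.06 and 0.07 in L. The libraries of these groups overlapped in each of the named genes.

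**Figure D2:**
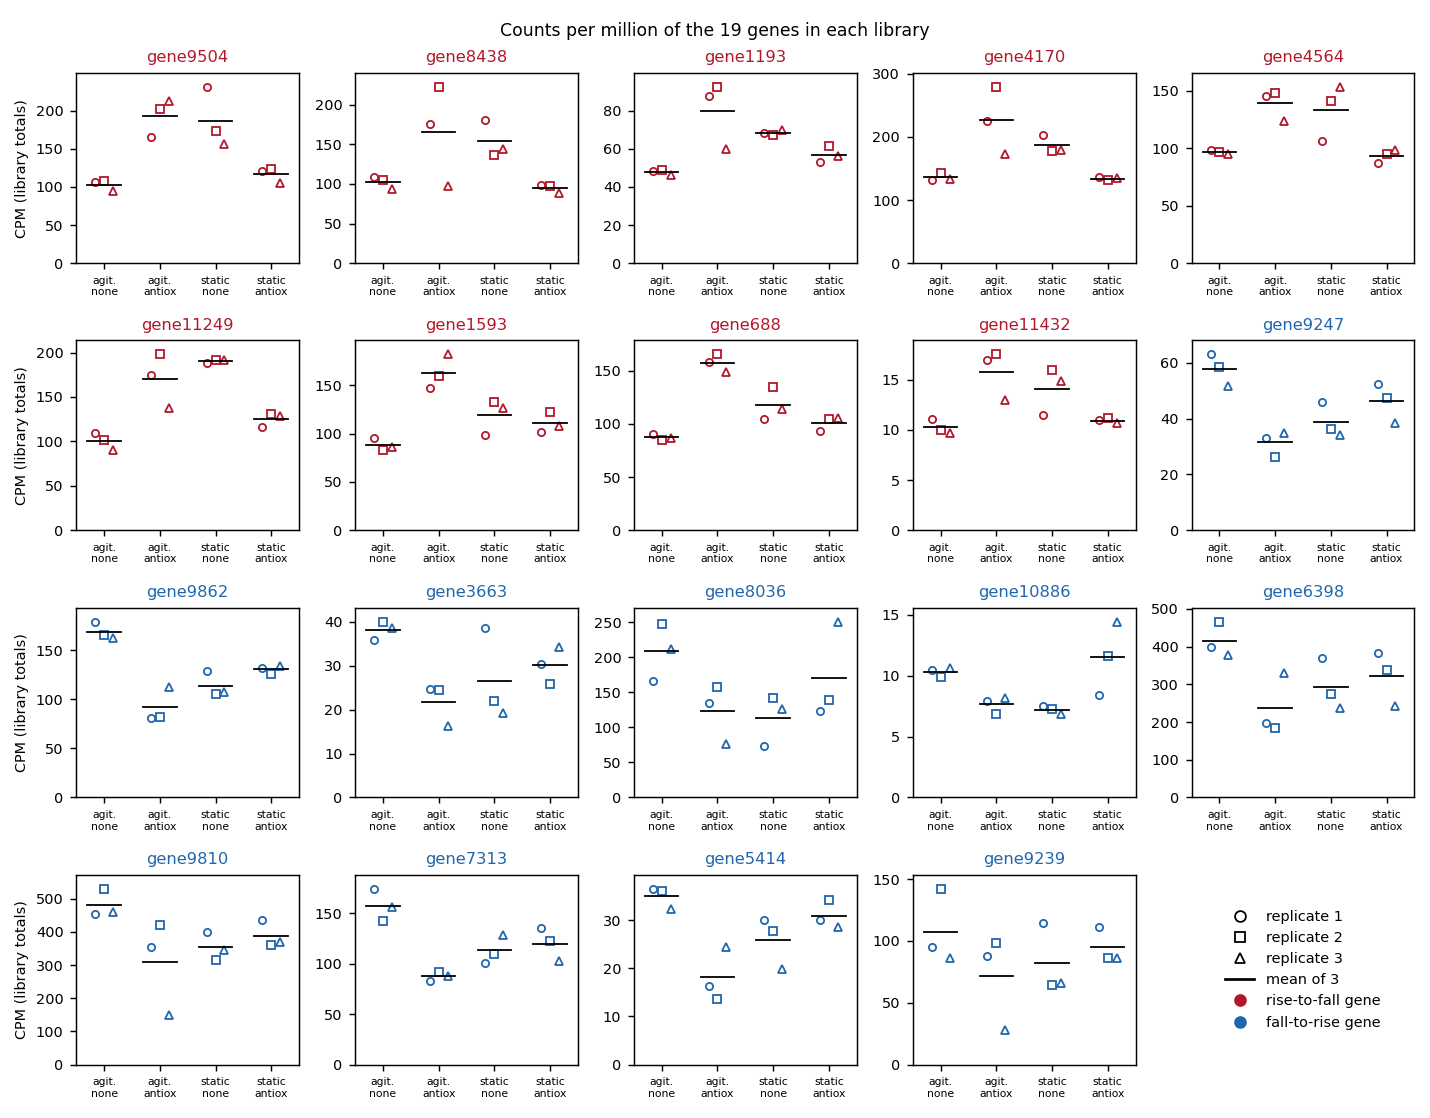
CPM by library totals (y axis, from 0) of each of the 19 genes in the 4 groups (x axis). Symbols are the 3 replicates and black bars their mean. In the red panels the 2 middle groups are high and the outer ones low, as in gene9504 with means of 194 and 187 against 103 and 117 CPM. The blue panels show the opposite order, and in several, such as gene9239 and gene8036, replicates are widely spread.

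Among fall-to-rise genes, gene9247 and gene9862 had the largest smaller effect. gene9247 stood at 63.0, 58.6 and 51.6 CPM when shaken and 45.8, 36.1 and 34.0 CPM when standing, without antioxidants. With antioxidants it stood at 33.0, 26.4 and 34.9 CPM when shaken and 52.3, 47.5 and 38.6 CPM when standing. Neither pair of groups overlapped, and the static difference was -0.57 without and 0.54 with antioxidants. gene9862 stood at 179, 166 and 162 against 129, 105 and 108 CPM without antioxidants, and at 81.1, 82.3 and 112 against 131, 126 and 134 CPM with them, again with no overlap. For both genes the level in static culture, with or without antioxidants, lay between the levels of the 2 agitated groups.

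gene5414 had the largest static difference with antioxidants of the 19, at 0.78. Its agitated libraries with antioxidants stood at 16.4, 13.5 and 24.5 CPM and its static ones at 30.0, 34.2 and 28.6 CPM. Without antioxidants they stood at 36.6, 36.0 and 32.3 CPM when shaken and 30.0, 27.8 and 19.8 CPM when standing, a difference of -0.44. gene7313 also kept its groups apart, at 157 ± 16.2 CPM when shaken and 113 ± 14.2 CPM when standing, without antioxidants and 87.3 ± 4.62 and 119.8 ± 16.4 CPM with them (SD, n = 3). Its static level hardly depended on antioxidants, with a difference of 0.08.

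gene10886 was the exception in its class, since the antioxidant difference was larger in static than in agitated culture. Agitated libraries stood at 10.5, 9.85 and 10.6 CPM without and 7.89, 6.89 and 8.21 CPM with antioxidants. Static libraries stood at 7.49, 7.25 and 6.87 CPM without and 8.44, 11.6 and 14.4 CPM with them. It was the only gene of the 19 whose highest group was static culture with antioxidants, and the 3 libraries of that group were widely spread. With as few as 59 reads in a library, its values carry the most counting error of the 19.

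The other fall-to-rise genes had overlapping static and agitated libraries in at least 1 of the 2 comparisons. gene9810 stood at 355, 419.9 and 149 CPM in agitated culture with antioxidants and at 437, 359 and 369.8 CPM in static culture with them. gene9239 gave 87.5, 98.3 and 27.9 CPM and 112, 86.1 and 86.2 CPM in these 2 groups. In both genes agitated antioxidant replicate 3 was low, and the other 2 replicates of that group overlapped the static ones. gene8036 stood at 134, 157 and 76.7 CPM when shaken and 124, 139 and 251 CPM when standing, with antioxidants, and static replicate 3 lay far above the other 2. gene6398 differed in the other sense, with agitated antioxidant libraries at 196, 184 and 329.9 CPM and static ones at 383, 338 and 242 CPM. gene3663 overlapped without antioxidants, at 35.8 to 40.1 CPM in the agitated and 19.2 to 38.6 CPM in the static libraries.

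Over both classes, the static and agitated libraries did not overlap for 17 of the 19 genes without antioxidants, against 65.5% of the 7904 better-counted genes, and for 13 with antioxidants, against 49.5%. Both held, with opposite signs, for 12 genes, 7 rise-to-fall and 5 fall-to-rise, while 1.96% of the 7904 genes did so. The rule fixed these directions, and nothing is read from the comparison. Together the rise-to-fall genes took 0.0773% ± 0.00337 and 0.131% ± 0.0168 of gene reads in agitated culture without and with antioxidants, and 0.117% ± 0.00221 and 0.0844% ± 0.00294 in static culture (SD, n = 3). The fall-to-rise genes took 0.168% ± 0.0138, 0.0997% ± 0.0120, 0.117% ± 0.0124 and 0.134% ± 0.00852 in the same order. In mycelium sequenced in bulk, fewer hyphae expressing a gene and less RNA per hypha cannot be told apart.

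How large each side of the reversal was depended on the scaling of the libraries. TMM, a scaling that sets the typical gene to no change between libraries, lowered the static effect of the median gene by 0.18 without and 0.22 with antioxidants relative to library totals. It moved both static effects of each gene down together, so only 3 of the 19 (gene9504, gene11249 and gene5414) still met every limit of the rule. The signs of the static effects remained opposite in all 19. By the rule both effects were at least 0.4 in size, and the shifts were smaller, so nothing is read from this. On the TMM scale the fitted static effect of the rise-to-fall genes had a median log2 fold change of 0.29 without and -0.81 with antioxidants. That of the fall-to-rise genes was -0.69 without and 0.24 with antioxidants. The rule itself takes 18 genes on the TMM scale, and 15 of them are not among the 19.

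edgeR's quasi-likelihood test was run across all 10529 tested genes after TMM scaling, with calls at a Benjamini-Hochberg adjusted p under 0.05. All 19 genes were tested. Static culture differed from agitated culture without antioxidants in 10 of them, of which 2 were rise-to-fall and 8 fall-to-rise genes, against 48.3% of all genes. That split was 7 and 9 without agitated antioxidant replicate 3, 5 and 7 without static replicate 1 without antioxidants, and 5 and 9 with only the 2 compared groups in the fit. Over all genes these settings called 5891, 4920 and 5549, against 5083. With antioxidants it differed in 12, all 9 rise-to-fall and 3 fall-to-rise genes, against 50.1% of all genes. Both effects were called, in opposite directions, for 5 genes, against 0.921% of all genes. These 5 were gene9504 and gene11249, higher and then lower in static culture, and gene9247, gene9862 and gene5414, lower and then higher. The count of 5 was 9 without agitated antioxidant replicate 3, 8 without static replicate 1 without antioxidants and 3 without agitated antioxidant replicate 2, and over all genes it went from 97 to 132, 130 and 97. With library totals in the same test, the calls without antioxidants changed to 9 rise-to-fall and 4 fall-to-rise genes, against 45.9% of all genes. Those with antioxidants changed to 9 and 5, against 45.7%. Both were then called for 13 genes, against 0.693% of all genes. On that scaling 67.7% of all calls without and 71.4% of those with antioxidants were higher in static culture. The same libraries chose the 19 genes, so these counts describe them only.

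gene9504, gene11249 and gene5414 were called in both comparisons whichever of the 12 libraries was left out. gene9862 was so called with 9 and gene9247 with 4 of the 12 libraries left out in turn. Over all genes the same fits called 62 to 132 in both comparisons, in opposite directions. How many of all genes were called in every such fit was not counted. These fits reuse libraries that chose the 19 genes, so the calls are a description only. The difference between the static effects with and without antioxidants, which scaling leaves nearly untouched, was called for 14 genes against 9.05% of all genes, 9 rise-to-fall and 5 fall-to-rise genes. With library totals it was also called for 14, against 6.47% of all genes. With 1 library left out it was called for 10 to 15 of the 19 and for 459 to 1496 of all genes. It was called for 10, with 6 rise-to-fall genes in place of 9, without any 1 of the 3 agitated replicates without antioxidants, or without static replicate 2 or 3 without antioxidants. Its fitted size ran from -1.63 to -1.03 on the log2 scale among the rise-to-fall genes and from 0.70 to 1.29 among the fall-to-rise genes, with SEs of 0.13 to 0.60. The 5 genes without this call were gene3663, gene8036, gene6398, gene9810 and gene9239.

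By construction a reversal of the static effect is also a difference between 2 antioxidant effects. The rule allowed the antioxidant effect up to 1 in agitated but only 0.7 in static culture, so the sizes of the 2 are described and nothing is read from which was larger. The threshold of 0.4 and the static limit together also fixed the direction of the agitated antioxidant effect in each class. That direction and the calls below are therefore a description only. Antioxidants went with a higher level of the 9 rise-to-fall genes in agitated culture, by 0.51 to 0.90 in L, and with a lower level in static culture, where the difference ran from -0.68 to -0.10. For the fall-to-rise genes the differences ran from -0.95 to -0.39 in agitated and from 0.08 to 0.58 in static culture. The agitated difference was the larger one in 8 of 9 rise-to-fall genes, the exception being gene8438, and in 9 of 10 fall-to-rise genes, the exception being gene10886. Without agitated antioxidant replicate 3 the static difference was the larger one in gene8036 (-0.50 agitated, 0.56 static), gene9239 (-0.18 and 0.25) and gene10886, and no longer in gene8438 (0.95 and -0.68). Without static replicate 1 without antioxidants it was the larger one in gene4564 (0.51 and -0.65) and gene10886, and no longer in gene8438 (0.61 and -0.56). In the edgeR test the antioxidants changed 13 of the 19 genes in agitated culture, against 22.3% of all genes, and 1 of them, gene9504, in static culture, against 0.456%. That single static call was lost when replicate number entered the fit as a block (0 genes), while 5 of the 19 were called with the block in the 6 static libraries alone. Over all genes these fits called 28 and 322, against 48.

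**Figure D3:**
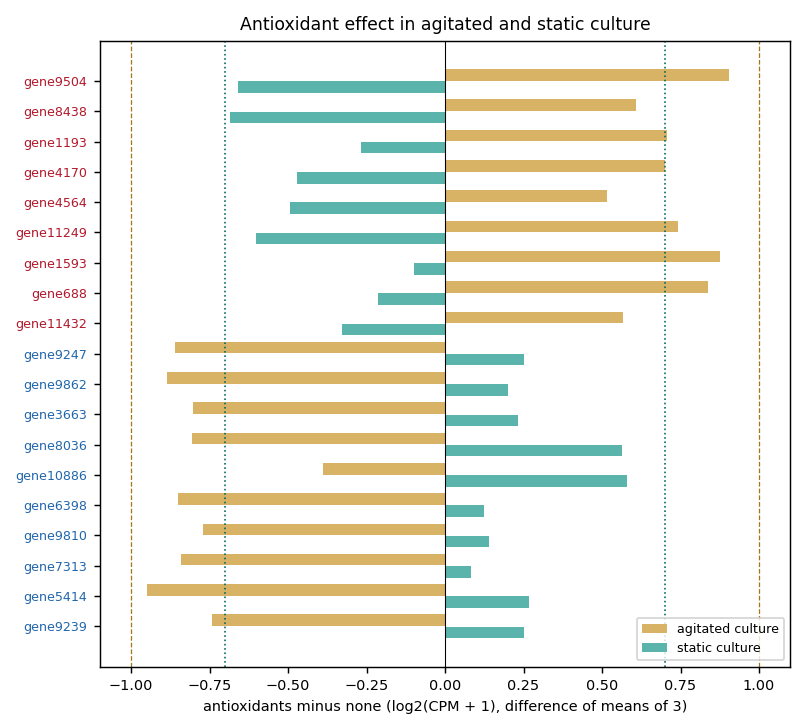
Difference of mean log2(CPM + 1) between cultures with and without antioxidants (x axis) for each of the 19 genes (y axis, rise-to-fall genes in red and fall-to-rise genes in blue), in agitated and static culture. Dashed lines mark the agitated limit of 1 and dotted lines the static limit of 0.7. The bars of each gene point in opposite directions, and the agitated bar is longer for all but gene8438 and gene10886.

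In the 19 genes, agitated antioxidant replicate 3 was the library of its group closest to the agitated level without antioxidants in 12, and static replicate 1 the one closest to the static antioxidant level in 12. The share over all genes was not counted, so nothing is read from either count. Without agitated antioxidant replicate 3 all 9 rise-to-fall genes still met the rule, with static effects of -1.05 to -0.47 with antioxidants, but only 3 of the 10 fall-to-rise genes did.

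Of the 7 fall-to-rise genes lost without that library, gene9862, gene6398 and gene5414 exceeded the agitated antioxidant limit, at -1.04, -1.12 and -1.18. The other 4 fell short of the static threshold with antioxidants, at 0.27 for gene3663, 0.16 for gene8036, 0.00 for gene9810 and 0.02 for gene9239. In L by library totals, the reversal of gene9810 and gene9239 thus disappeared without 1 library. In the TMM-scaled edgeR fit without that library, the static effect with antioxidants turned negative in all 4 genes. Without static replicate 1, the rule kept 8 rise-to-fall and 9 fall-to-rise genes, and the 2 lost, gene4170 at 0.38 and gene7313 at -0.40, missed the threshold narrowly in the static effect without antioxidants.

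The rule was also applied with each of the 12 libraries left out in turn. It then took 13 to 33 genes, of which 10 to 19 were among the 19. gene9247 was taken each time, gene9862 and gene4170 in 11 of 12, and gene8036, gene6398, gene9810 and gene9239 in 7. A gene could drop out by exceeding an antioxidant limit as well as by a smaller static effect. Beyond the libraries described above, these reasons were not counted apart, so the counts do not rank the reversals. gene9504 was taken in 8 of 12, yet edgeR called both of its static effects in all 12 such fits, against 4 for gene9247. The library left out was also set alone against the mean of the opposite culture state, whose libraries had entered the choice. Its static effect had the sign that the other libraries gave in 230 of 256 cases summed over the 12 choices, and also reached 0.4 in 126. Many genes recur across the choices, so these cases are not independent. The sign was kept least often for agitated antioxidant replicate 2 (17 of 26), static replicate 1 without antioxidants (23 of 33) and agitated antioxidant replicate 3 (17 of 21). The size was kept in 6 of 33 for that static library and 6 of 21 for agitated antioxidant replicate 3. Among all better-counted genes with an effect of at least 0.4, the sign was kept in 85.0 to 99.9%, the lowest for agitated antioxidant replicate 3, and in 97.4% for each of the other 2 libraries just named. Those genes include much larger effects and were not matched in size to the chosen ones, so nothing is read from the comparison.

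**Figure D4:**
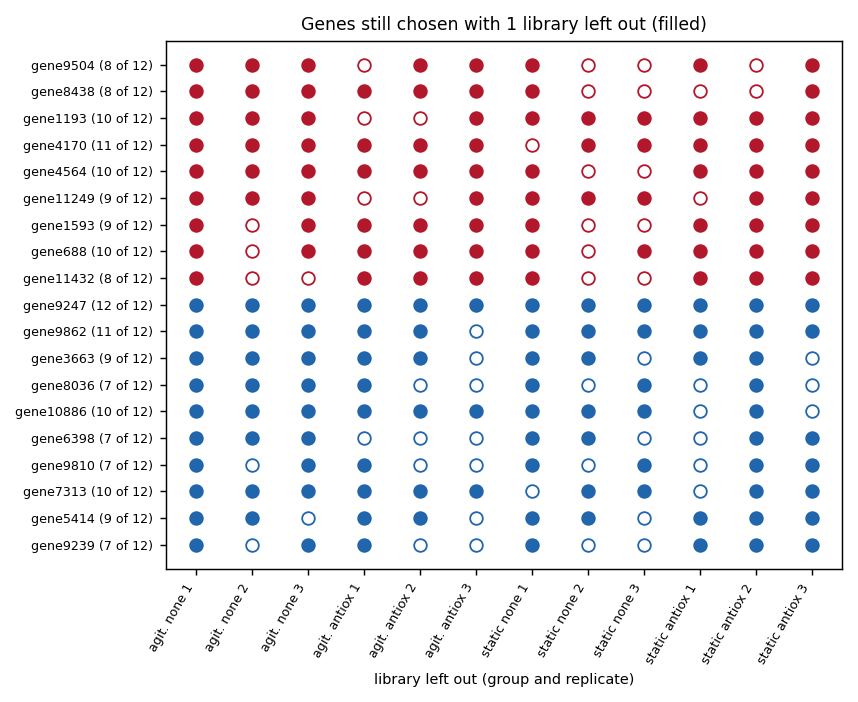
Whether each of the 19 genes (y axis, with the number of settings in which it was kept) still met the rule when 1 library was left out (x axis, by group and replicate). Filled points were kept and open points were not, and open points include genes that exceeded an antioxidant limit. All 9 rise-to-fall genes (red) but only 3 of the 10 fall-to-rise genes (blue) remained without agitated antioxidant replicate 3, and gene9247 was kept in all 12.

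The last 2 genes inside the threshold of 0.4 were gene11432 and gene9239, whose smaller static effect was 0.41 in each. The first 2 outside were gene5147, at -0.40 without and 0.52 with antioxidants, and gene3791, at -0.39 and 0.74. gene3791 stood at 55.4, 53.1 and 55.9 CPM when shaken and 42.7, 35.1 and 47.5 CPM when standing, without antioxidants, and at 30.1, 36.6 and 25.5 against 48.5, 49.8 and 56.9 CPM with them. Its static and agitated libraries did not overlap in either medium, as in 12 of the 19. On the TMM scale gene3791 met the rule, at -0.57 without and 0.53 with antioxidants. edgeR called both of its static effects, as for 5 of the 19 and 0.921% of all genes. For gene5147 edgeR called only the static effect without antioxidants.

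The rule did not use the spread between replicates directly. The pooled within-group SD of L had a median of 0.17 among rise-to-fall and 0.30 among fall-to-rise genes. The ranges overlapped, from 0.11 to 0.33 and from 0.16 to 0.59, and no test of the difference was made. The median percentiles were 51.0 and 87.8 among the better-counted genes. The smallest spread was that of gene688 (0.11) and the largest that of gene9239 (0.59). edgeR's coefficient of biological variation ran from 10.9 to 22.9% and from 9.21 to 36.0% in the 2 classes, with medians of 14.5 and 16.3%, against a median of 11.5% over all tested genes. Both classes reached from weakly to well counted genes, with mean L of 3.76 to 7.38 and 3.32 to 8.53. No 2 of the 19 carried running numbers within 2 of each other, and the closest were gene9239 and gene9247. All better-counted genes together held 11701 such pairs. In so small a set they would be few in any case, and nothing is read from their absence.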

How the data were processed

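For every library the authors deposited whole-number read counts per gene without normalisation. HTSeq, Bowtie, Bowtie2 and FastQC are listed, per the submitters' processing notes, which add neither versions nor roles. Genome build, annotation and strand setting were not stated in the labels or tables used here. HTSeq's summary lines were kept out of library sizes: 31.4 to 49.1% of reads had low mapping quality, 4.61 to 5.32% lay outside genes, 0.213 to 0.271% were ambiguous and 0.551 to 1.39% were not aligned. Genes with near-identical copies, overlapping genes and antisense genes are therefore uncertain. Groups come from sample titles. One agitated library without antioxidants has no agitation entry in its other labels.

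L is log2(CPM + 1), with CPM per library total. The 12 libraries were also fitted with edgeR 4.0.16 in R 4.3.3 (filterByExpr, TMM, 4 group means, robust glmQLFit and glmQLFTest), which tested 10529 genes with 8 residual degrees of freedom. Calls used a Benjamini-Hochberg adjusted p under 0.05 over all genes. Alternatives used DESeq2 1.42.0 and limma 3.58.1.

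The genes, lists and tests were chosen with earlier results of these data known. Genes named were, in each class, the 8 with the largest smaller static effect, the 3 of highest mean CPM and those with the largest antioxidant effects, plus 2 just inside and 2 just outside the threshold, which covers all 19. Lists by gene product were not filled, since the tables used here give no products. Every replicate pair differed beyond sampling noise (chi-square per degree of freedom 18.0 to 146). Same-number libraries of the static groups without and with antioxidants deviated together (correlations 0.365, 0.177 and 0.464). Libraries of unlike number in these groups reached 0.0925 at most. In other pairs of groups same-number libraries did not stand out (-0.352 to 0.163), and the labels give the number no meaning. The main fit was unpaired, and counts from fits with a replicate block are given beside it. Counting error alone is small where reads are many, so errors given are the spread between libraries. The Trametes versicolor libraries were not used here.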

Additional observations from a re-analysis of the deposited data

Results flagged for a closer look

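For 14 of the 19 genes the static effect differed between cultures with and without antioxidants by edgeR's test of that difference (adjusted p under 0.05). The genes were chosen for this difference in the same libraries, so the calls are not independent of the choice. Each value is the log2 static effect with antioxidants minus that without. Among rise-to-fall genes it was -1.63 for gene9504, -1.47 for gene8438, -1.43 for gene11249, -1.27 for gene4170, -1.12 for gene688, -1.10 for gene4564, -1.08 for gene1193, -1.07 for gene11432 and -1.03 for gene1593. Among fall-to-rise genes it was 1.21 for gene5414, 1.10 for gene9247, 1.07 for gene10886, 1.05 for gene9862 and 0.88 for gene7313. With 3 libraries a group, single libraries were not screened as outliers.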

How the results depend on the processing

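The rule took 75 genes (30 rise-to-fall, 45 fall-to-rise) at a threshold of 0.3, 1 (1 and 0) at 0.6 and 50 (26 and 24) without limits on the antioxidant effects. Without a minimum mean L, 17 fall-to-rise genes were taken. Other settings changed no count by over 1.5 times, although TMM kept only 3 and DESeq2 size factors only 4 of the 19. Group medians of L in place of means kept 11 (8 rise-to-fall, 3 fall-to-rise), and opposite signs in 18. With TMM, 7 of the 19 genes, against 12 with library totals, kept both static comparisons free of overlap. The share of all genes that did so on the TMM scale was not counted, so nothing is read from the 7. Leaving out 1 library gave 13 to 33 genes, 5 to 12 rise-to-fall and 7 to 21 fall-to-rise. The extremes came without static replicate 1 without antioxidants (33 and 21 fall-to-rise) and static replicate 3 without antioxidants (5 rise-to-fall), and 16 fall-to-rise genes were taken without agitated antioxidant replicate 2.

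Of the 19 genes, edgeR called 7 to 16 in static against agitated culture without antioxidants when 1 library was left out, the highest without agitated antioxidant replicate 3, while the count over all genes ran from 4253 to 5891, its highest in the same setting. In static culture it called 0 to 4 for the antioxidants, 0 with library totals, 0 with the replicate block, 5 with the block in static libraries only (added after seeing the data), 3 with only the 2 compared groups and 3 with DESeq2. The replicate block changed the number of the 19 called in no other comparison. Over all genes the static antioxidant count was 48, and 248 with DESeq2, 82 with 2 groups, 28 and 322 with the blocks and 10 to 244 with 1 library left out. The count for the difference was 953, and 1516 with DESeq2 and 459 to 1496 with 1 library left out. The agitated antioxidant count was 2343, and 1436 to 2565 with 1 library left out.

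Signs turned in 9 of 1805 single-gene values, none of them for the difference. With 1 library left out, the static effect with antioxidants ran from -0.0182 to 0.371 for gene3663, from -0.20 to 0.480 for gene8036, from -0.31 to 0.375 for gene9810 and from -0.28 to 0.452 for gene9239. Without agitated antioxidant replicate 3 it turned in all of these, to -0.07 for gene8036, -0.31 for gene9810 and -0.28 for gene9239. It also turned without static antioxidant replicate 3 for gene8036 (-0.20) and without static antioxidant replicate 1 for gene9810 (-0.02). The antioxidant effect in static culture ran from -0.00906 to 0.312 for gene6398, turning without static antioxidant replicate 1. It ran from -0.00944 to 0.210 for gene7313, turning without static replicate 1 of either medium (-0.00768 with antioxidants). The cause was not tested. Depth limits gene10886 and gene11432 most.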
